A study of Mus musculus with 15 samples.

Results

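The genes described here are 46 mouse genes of mitosis and the G2/M transition given as a list of symbols. All 46 were found in the table of 32939 genes, and all 46 passed the filter on low counts, which kept 17404 genes. The data are bulk RNA-seq of colonic crypts, the epithelial pits of the large intestine, in 3 groups of 5 libraries from wild-type (WT) mice. NL-shGFP mice had a normal diet and a normal liver and received AAV-shGFP, an adeno-associated virus vector with a short hairpin RNA against GFP as control. FL-shGFP mice had a CDAA diet and a fatty liver and received the same control vector. FL-shAlpl mice had the same diet and liver condition and received AAV-shAlpl, a hairpin against Alpl, which encodes tissue-nonspecific alkaline phosphatase. Diet and liver condition changed together and cannot be told apart, and no normal-liver group with AAV-shAlpl was analysed here. The labels name neither the tissue that the vector reached nor the age or sex of the mice. They do not say that libraries of a group came from separate mice, so the p-values reflect no more than how far these libraries differ, which may be technical. The study asked how hepatocytes communicate with intestinal stem cells at a distance, and how this bears on blood glucose.

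Mitosis is driven by the kinase Cdk1 with its cyclins, which trigger chromosome condensation, spindle assembly and breakdown of the nuclear envelope. The spindle checkpoint holds cells until every kinetochore is attached, after which the anaphase-promoting complex (APC/C) destroys cyclin B and securin and the cell divides. Most of these genes are transcribed late in the cell cycle, through promoters with CCAAT boxes bound by NF-Y and a cell cycle genes homology region (CHR) bound by MuvB complexes, so their RNA is read as a measure of cycling cells. In colonic crypts, cycling cells sit in the lower part, below differentiated colonocytes.

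Because promoters of this type are described for most genes of this kind, the promoters of the members were searched for both elements. RefSeq promoters of GRCm38.p6, running from 250 bases before to 50 bases after the annotated start, were present for 37 of the 46 members, and the first was used for Ect2 and Prc1, which had 2. The promoters of Ccna2, Cdc25c, Foxm1, Smc4, Aurkb, Incenp, Tpx2, Dlgap5 and Kif20a were not used here. A CHR was counted as TTTGAA or TTCGAA and a CCAAT box as CCAAT, each on both strands, so that TTCAAA and ATTGG also count, and overlapping matches were counted separately. Of the 37 promoters, 29 (78.4%) held a CHR, against 19.4% of the promoters of 27025 genes. A CCAAT box was present in 27 (73.0%), against 37.9% of all genes, and both elements in 25 (67.6%), against 7.70%. In 27 of 37 (73.0%) a CHR lay within 50 bases of the start, against 5.29% of all genes. Neither element was found in Birc5, Mad2l1, Ncaph, Nuf2, Nusap1 and Pttg1. Shown here are the promoters of Cdk1 (2 CHR and 3 CCAAT matches), Top2a (4 and 6), Ube2c (1 and 6) and Plk1 (1 and 1), which span the counts of both elements, and those of Nuf2 and Pttg1, which hold neither and whose genes had the largest and the smallest difference between the AAV-shAlpl and control groups. Each is written 5′ to 3′ on the gene's own strand, with matches in capitals. Cdk1 lies at chr10:69352863-69353162 (minus strand), Top2a at chr11:99024140-99024439 (minus), Ube2c at chr2:164769679-164769978 (plus), Plk1 at chr7:122159185-122159484 (plus), Nuf2 at chr1:169531415-169531714 (minus) and Pttg1 at chr11:43425932-43426231 (minus).
Cdk1: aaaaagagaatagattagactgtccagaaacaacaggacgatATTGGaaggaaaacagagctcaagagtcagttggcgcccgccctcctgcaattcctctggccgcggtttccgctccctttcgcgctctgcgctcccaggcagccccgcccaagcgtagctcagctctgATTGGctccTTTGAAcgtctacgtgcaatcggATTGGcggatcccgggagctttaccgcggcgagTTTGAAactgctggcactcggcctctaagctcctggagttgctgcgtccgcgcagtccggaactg
Top2a: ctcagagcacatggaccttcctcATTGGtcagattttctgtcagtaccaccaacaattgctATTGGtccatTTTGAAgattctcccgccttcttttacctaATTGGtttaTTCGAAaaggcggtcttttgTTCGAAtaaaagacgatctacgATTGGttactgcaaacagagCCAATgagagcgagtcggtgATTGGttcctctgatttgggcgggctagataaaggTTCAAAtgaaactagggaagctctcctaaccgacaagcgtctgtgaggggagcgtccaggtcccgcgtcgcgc
Ube2c: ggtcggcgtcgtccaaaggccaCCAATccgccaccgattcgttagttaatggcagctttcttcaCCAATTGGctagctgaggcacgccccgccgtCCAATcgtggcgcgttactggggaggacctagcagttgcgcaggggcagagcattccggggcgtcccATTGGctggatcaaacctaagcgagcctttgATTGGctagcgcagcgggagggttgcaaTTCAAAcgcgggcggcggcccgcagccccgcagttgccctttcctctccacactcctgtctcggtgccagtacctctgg
Plk1: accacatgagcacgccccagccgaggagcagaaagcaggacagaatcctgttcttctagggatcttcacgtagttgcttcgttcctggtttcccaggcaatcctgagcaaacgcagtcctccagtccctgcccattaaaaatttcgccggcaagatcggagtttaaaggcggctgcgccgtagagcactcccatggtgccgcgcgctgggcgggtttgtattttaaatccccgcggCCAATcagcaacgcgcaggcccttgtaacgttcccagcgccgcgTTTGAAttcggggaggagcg
Nuf2: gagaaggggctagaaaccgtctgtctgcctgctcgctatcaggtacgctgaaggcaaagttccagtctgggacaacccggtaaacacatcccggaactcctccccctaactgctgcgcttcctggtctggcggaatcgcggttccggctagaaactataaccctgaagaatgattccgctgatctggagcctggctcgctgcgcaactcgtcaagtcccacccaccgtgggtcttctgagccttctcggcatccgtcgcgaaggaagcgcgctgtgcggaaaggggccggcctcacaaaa
Pttg1: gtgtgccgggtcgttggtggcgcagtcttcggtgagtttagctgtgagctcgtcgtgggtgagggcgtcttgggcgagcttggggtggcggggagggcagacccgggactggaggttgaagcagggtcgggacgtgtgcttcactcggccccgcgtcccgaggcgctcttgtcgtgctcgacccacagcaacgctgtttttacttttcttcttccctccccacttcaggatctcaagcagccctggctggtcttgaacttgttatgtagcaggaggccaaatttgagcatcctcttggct
In the Ube2c promoter a CCAAT and an ATTGG overlap. A match is a run of letters and not a measured binding site, and a window without one says nothing of the factors.

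**Figure D1:**
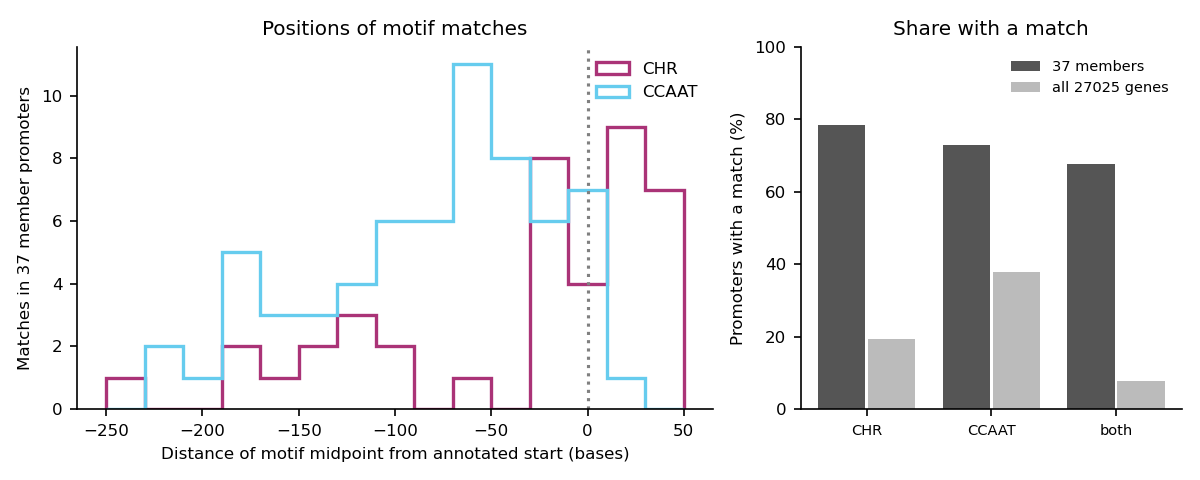
Left, number of CHR and CCAAT matches in the 37 member promoters by distance of the match midpoint from the annotated start, in bases; right, percent of promoters with a match among 37 members and among 27025 genes. A CHR was present in 78.4% of member promoters against 19.4% of all, and 73.0% of member promoters had one within 50 bases of the start.

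The targeted gene Alpl had 0, 2, 0, 0 and 0 counts across NL-shGFP replicates 1 to 5, 15, 14, 18, 25 and 23 across FL-shGFP, and 6, 2, 2, 2 and 0 across FL-shAlpl. It was lower in FL-shAlpl than in FL-shGFP (log2 fold change -3.16 ± 0.63 SE, edgeR adjusted p = 0.00197), at counts too low for a fine estimate. Library totals were 33.3 to 41.4 M counts across NL-shGFP, 37.5 to 51.7 M across FL-shGFP and 42.1 to 58.6 M across FL-shAlpl. Mitochondrially encoded genes took 28.0% to 37.5% of counts across NL-shGFP, 13.7% to 21.5% across FL-shGFP and 14.8% to 24.3% across FL-shAlpl. The summed level of 7 epithelial markers such as Epcam was 6309.7 to 8152 CPM (counts scaled to a common library size, as used throughout) across NL-shGFP, 7542 to 11112 across FL-shGFP and 7195 to 10603 across FL-shAlpl, so the libraries carry the epithelial markers that their label implies. NL-shGFP replicates 3 and 4 lay closest of all pairs in a group (median chi-square per gene 0.737, against 0.455 for counting noise alone). NL-shGFP replicates 1 and 2 came next (1.34). All were kept as separate libraries, and an alternative summed replicate 1 with 2 and replicate 3 with 4. FL-shGFP replicate 4 was the lowest of the 15 libraries for 45 of the 46 mitotic genes, and counts are given with and without it. A Dixon outlier rule (critical ratio 0.71), applied to CPM in 63 sets of 1 gene in 1 group, flagged 0 values. With 5 widely spread values, such a rule can hardly flag a low CPM. It therefore does not clear FL-shGFP replicate 4.

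In normal crypts the 46 genes spanned a wide range of levels. On the length-corrected FPKM scale, Plk1, the polo-like kinase of spindle and kinetochore assembly, was highest in NL-shGFP (41.3 ± 3.22 FPKM, SD, n = 5) and Mki67 was next (33.1 ± 5.02). The median member stood at 6.69 FPKM. The lowest was Cdc25c, the phosphatase that activates Cdk1 (1.39 ± 0.112). All further levels are CPM. The smallest count of any member in any library was 20, for Cdc25c. Some reads cannot be placed with certainty, because 13 members share exon bases with another annotated gene and the strand setting of the counting is not given in the sources used here. These are Ccna2, Cdc25c, Plk1, Foxm1, Top2a, Ncapg, Cdca8, Kif4, Nusap1, Cdc20, Ube2c, Kif20a and Prc1, with 1.35% of exon bases shared in Top2a and 29.3% in Kif20a at the extremes. Ccnb1, Ccnb2 and Kif4 also have a named pseudogene.

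Within each fatty liver group the libraries were spread widely and in nearly the same order for every gene. The median coefficient of variation of the 46 genes was 14.8% across NL-shGFP, 60.7% across FL-shGFP and 51.2% across FL-shAlpl. Over the 10523 genes with a mean above 5 CPM it was 9.86%, 17.0% and 16.7%. The highest library was a median 1.47 times the lowest across NL-shGFP, 7.51 times across FL-shGFP and 4.44 times across FL-shAlpl. In FL-shGFP, replicates 3 and 5 were the 2 highest for 46 of 46 genes, and replicate 4 was the lowest for 45 of 46. In FL-shAlpl, replicates 1 and 4 were the 2 highest and replicate 5 the lowest for 45 of 46. The exception to both orders was Pttg1. Genes of one library share its RNA, so these counts describe libraries and not 46 separate events.

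Set against the mean of NL-shGFP, the median member stood at 33.9%, 43.1%, 73.0%, 10.9% and 82.8% in FL-shGFP replicates 1 to 5. In FL-shAlpl replicates 1 to 5 it stood at 162%, 74.1%, 92.6%, 164% and 39.5%. FL-shGFP replicates 1 and 2 lay below the whole NL-shGFP range for 46 of 46 genes, replicate 4 for 45, replicate 3 for 35 and replicate 5 for 21. FL-shAlpl replicates 1 and 4 lay above that range for 44 and 43 genes, replicate 3 within it for 39, and replicates 2 and 5 below it for 30 and 45. Thus the FL-shAlpl group held libraries on both sides of the normal range. In share of all counts, the 46 genes took 0.199% to 0.254% across NL-shGFP, 0.0293% to 0.209% across FL-shGFP and 0.0908% to 0.415% across FL-shAlpl.

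**Figure D2:**
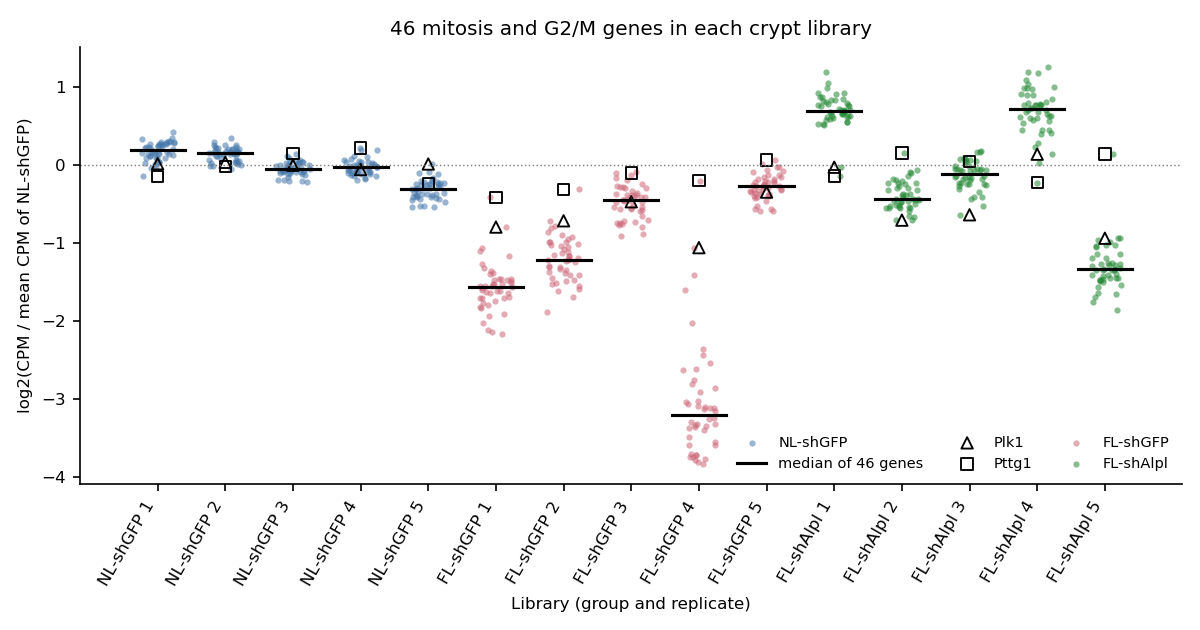
Each point is 1 of the 46 genes in 1 library, as log2 of its CPM over the NL-shGFP mean CPM, with bars at the median of the 46 genes and open symbols for Plk1 (triangle) and Pttg1 (square). FL-shGFP replicate 4 has the lowest median (10.9% of the NL-shGFP mean), FL-shAlpl replicates 1 and 4 the highest (162% and 164%), and Pttg1 stays near 0 throughout.

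In crypts of mice with fatty liver, mitotic genes were lower than in normal crypts. In FL-shGFP against NL-shGFP, 16 of the 46 (34.8%) fell and 0 rose by the edgeR quasi-likelihood test (Benjamini-Hochberg adjusted p below 0.05 over all genes tested, the call used throughout), where 21.6% of all 17404 genes fell and 46.7% were called in either direction. The other 30 did not pass, and 32 of 46 (69.6%) had an unadjusted p below 0.05, against 54.3% of all genes in either direction. All 46 estimates were negative, with a median log2 fold change of -1.04, or 48.8% of the NL-shGFP level, against a median of 0.00 over all genes. They ran from -1.42 for Top2a to -0.18 for Pttg1. For 21 of 46 genes (45.7%) every FL-shGFP library lay below every NL-shGFP library, against 16.2% of all genes, and 0 lay wholly above, against 18.1%. In bulk RNA, fewer mitotic cells and less mitotic RNA per cell cannot be told apart. The count of calls depended on single libraries, while the estimates stayed negative for 46 of 46 genes with any library left out. It was 7, with a median of -0.79, without FL-shGFP replicate 4, 1 without replicate 1, 4 without replicate 2, 25 without replicate 3 and 36 without replicate 5. Without NL-shGFP replicate 1, 2, 3 or 4 it was 6, 5, 6 and 9, and without FL-shAlpl replicate 5, which enters through the shared spread, 28. These counts, and those of the next comparison, are not set beside the calls over all genes in the same fits. They therefore cannot be read as changes in the members alone.

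With AAV-shAlpl in fatty liver, mitotic genes were higher than with the control vector. In FL-shAlpl against FL-shGFP, 21 of 46 (45.7%) rose and 0 fell, where 18.0% of all genes rose and 36.0% were called in either direction. The other 25 did not pass, and 40 of 46 (87.0%) had an unadjusted p below 0.05, against 46.3% of all genes in either direction. All 46 estimates were positive, with a median log2 fold change of 1.16 (2.24-fold) against 0.00 over all genes, and ran from 0.19 for Pttg1 to 1.55 for Nuf2. The 2 groups overlapped in every one of the 46 genes (0 of 46 without overlap, against 7.63% of all genes with FL-shAlpl wholly higher and 9.29% wholly lower). This comparison uses the same 5 FL-shGFP libraries as the one before, so low FL-shGFP values enter both, and the folds of both are given side by side. The count was 10, with a median of 0.94, without FL-shGFP replicate 4, 1 without replicate 1, 5 without replicate 2 and 41 without replicate 5. It was 1, 10, 2 and 41 without FL-shAlpl replicate 1, 3, 4 and 5, and 13 without NL-shGFP replicate 2, 3 or 4, with 46 of 46 estimates positive each time.

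**Figure D3:**
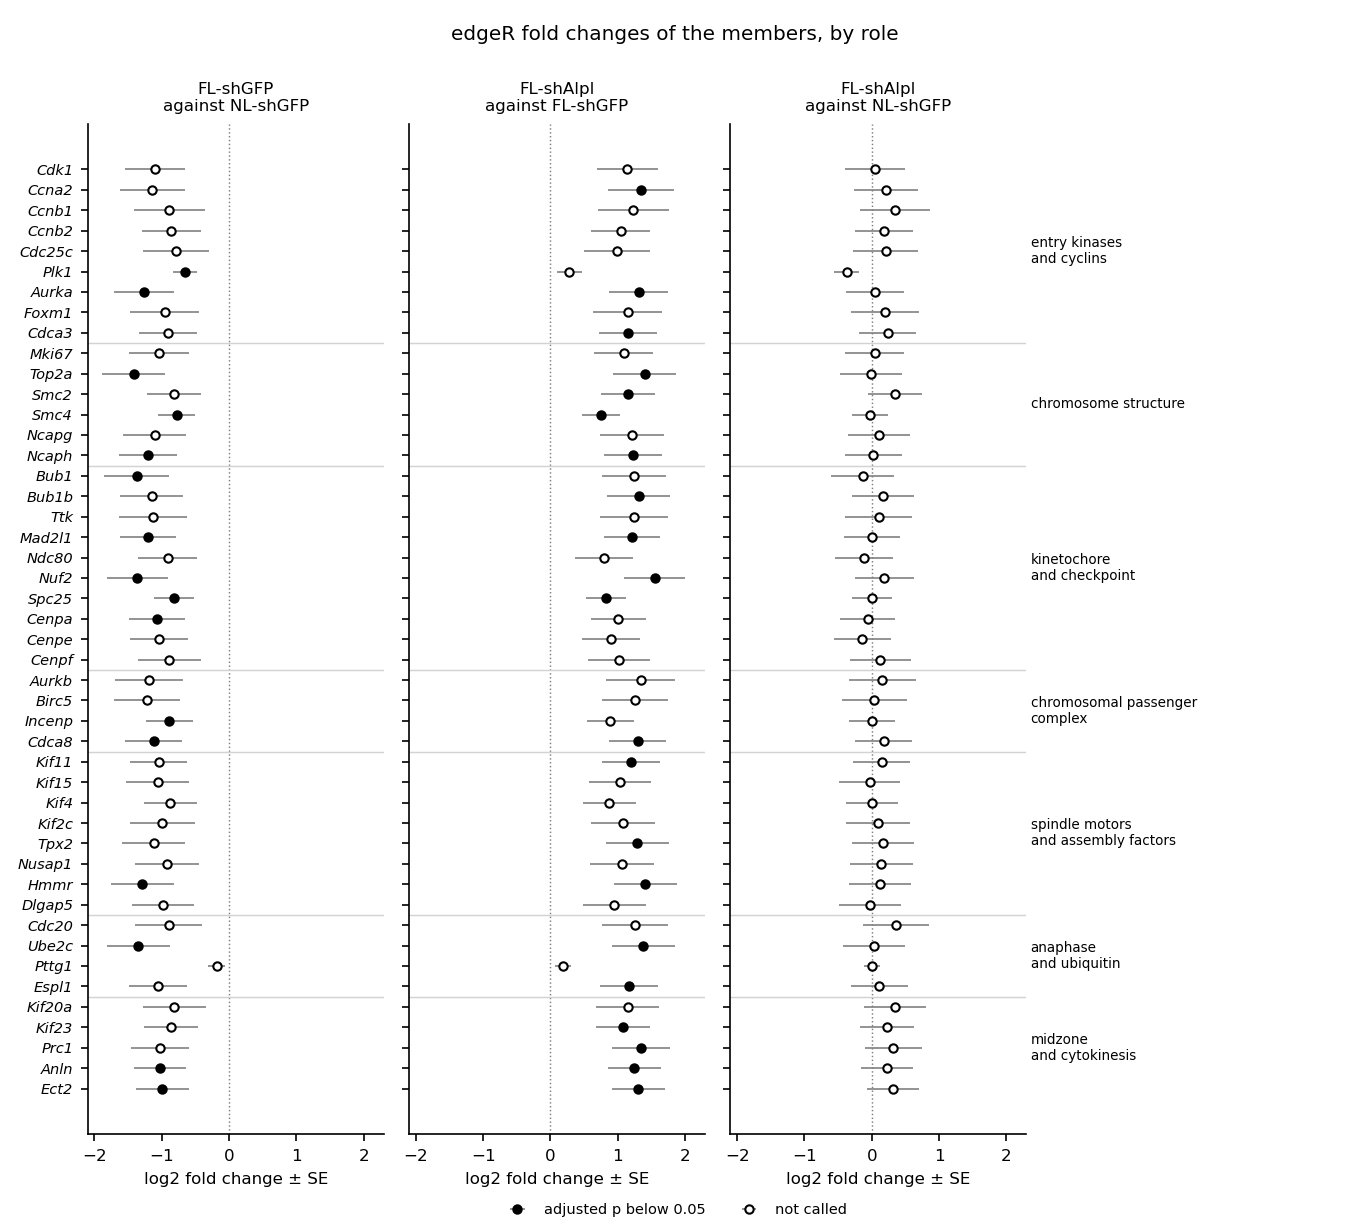
log2 fold change ± SE from edgeR for each of the 46 genes, grouped by role, in the 3 comparisons; filled points have an adjusted p below 0.05. All 46 estimates are below 0 on the left and above 0 in the middle, with 16 and 21 calls, and on the right none is called.

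Of the 9 kinases, cyclins and regulators of mitotic entry, 2 (22.2%) fell in FL-shGFP (median -0.91) and 3 rose in FL-shAlpl against FL-shGFP (median 1.15). Counts by role, here and below, stand beside 21.6% of all genes that fell in FL-shGFP and 18.0% that rose in FL-shAlpl against FL-shGFP. By role, falls ran from 12.5% to 50% and rises from 25% to 80%. Each role holds 4 to 10 genes, and several lie near those shares. Cdk1, the kinase that starts mitosis, had 61.3, 62.3, 58.5, 52.9 and 40.2 CPM across NL-shGFP replicates 1 to 5, 18.7, 24.0, 33.7, 5.50 and 46.01 across FL-shGFP, and 87.2, 40.1, 44.3, 91.2 and 20.7 across FL-shAlpl. FL-shGFP replicate 5 reached into the NL-shGFP range, while FL-shAlpl ran from below the NL-shGFP range (replicates 2 and 5) to above it (replicates 1 and 4). The differences were -1.10 ± 0.45 in FL-shGFP against NL-shGFP (adjusted p = 0.0565) and 1.15 ± 0.45 in FL-shAlpl against FL-shGFP (0.0589), so neither passed. Its partner Ccnb1, cyclin B1, had 53.8, 50.7, 44.4, 46.8 and 32.9 CPM across NL-shGFP, 15.9, 26.1, 34.99, 3.33 and 43.2 across FL-shGFP, and 90.3, 37.2, 40.2, 105 and 18.6 across FL-shAlpl. FL-shGFP replicates 3 and 5 overlapped NL-shGFP, and neither difference passed (-0.89 ± 0.52, adjusted p = 0.175, and 1.23 ± 0.53, 0.0789). Ccna2, cyclin A2, rose in FL-shAlpl against FL-shGFP (1.35 ± 0.49, adjusted p = 0.0418), and its difference in FL-shGFP was -1.14 ± 0.48. Ccnb2, cyclin B2, stood at -0.86 ± 0.44 and 1.04 ± 0.44 in the 2 comparisons, and Cdc25c at -0.78 ± 0.49 and 0.99 ± 0.49, with no call.

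Foxm1, the transcription factor that activates many of the other genes, had 27.2, 26.9, 24.0, 23.2 and 22.0 CPM across NL-shGFP, 7.89, 11.8, 20.4, 1.87 and 21.4 across FL-shGFP, and 38.8, 17.3, 23.7, 52.2 and 8.83 across FL-shAlpl. All 5 FL-shGFP values lay below all NL-shGFP values, replicates 3 and 5 by little. The differences were -0.95 ± 0.51 (adjusted p = 0.135) and 1.15 ± 0.51 (0.0906). Aurka, the kinase of centrosome maturation, fell in FL-shGFP (-1.26 ± 0.44, adjusted p = 0.0299) and rose in FL-shAlpl (1.31 ± 0.44, 0.0316). Cdca3, a regulator of mitotic entry, had -0.91 ± 0.43 without a call and rose in FL-shAlpl against FL-shGFP (1.15 ± 0.43, adjusted p = 0.0493).

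Plk1 had the smallest p of the 46 in FL-shGFP against NL-shGFP, with a small change and little spread. It had 95.6, 96.8, 94.3, 90.8 and 95.4 CPM across NL-shGFP, 54.5, 57.6, 68.2, 45.4 and 74.3 across FL-shGFP, and 92.7, 57.9, 60.8, 104 and 49.3 across FL-shAlpl. Every FL-shGFP library lay below every NL-shGFP library, and in FL-shAlpl replicate 1 was within and replicate 4 above the NL-shGFP range while the other 3 were within the FL-shGFP range. Plk1 fell in FL-shGFP (-0.66 ± 0.18, adjusted p = 0.00885) and did not pass in FL-shAlpl against FL-shGFP (0.28 ± 0.18, adjusted p = 0.239). In FL-shGFP replicate 4, Plk1 stood at 48.0% of its NL-shGFP mean and Pttg1 at 86.9%, while the other 44 genes lay between 7.01% and 37.5%.

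Of the 6 genes of chromosome structure, 3 fell in FL-shGFP (median -1.07) and 4 rose in FL-shAlpl against FL-shGFP (median 1.18). Mki67, which encodes the Ki-67 antigen that coats mitotic chromosomes, had 437, 352, 331, 319.5 and 297 CPM across NL-shGFP, 118, 125, 264, 39.0 and 297 across FL-shGFP, and 546, 269, 343, 502 and 131 across FL-shAlpl. All FL-shGFP values lay below those of NL-shGFP, though replicate 5 came within 1 CPM of the lowest. The differences of -1.04 ± 0.44 (adjusted p = 0.0663) and 1.09 ± 0.44 (0.0682) missed the threshold. Top2a, the topoisomerase that untangles sister chromatids, had 258, 240.0, 193, 195 and 169.9 CPM across NL-shGFP, 52.0, 65.2, 121, 15.5 and 141 across FL-shGFP, and 339.8, 149, 191, 287 and 76.7 across FL-shAlpl. The FL-shGFP and NL-shGFP values did not overlap, and FL-shAlpl ran from within the FL-shGFP range to above NL-shGFP. Top2a fell in FL-shGFP (-1.42 ± 0.47, adjusted p = 0.0228), the largest estimate of the 46, and rose in FL-shAlpl against FL-shGFP (1.40 ± 0.47, 0.0306). With 1 library left out, its adjusted p in FL-shGFP ran from 0.0101 to 0.0565.

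The condensin genes followed the same order of libraries. Smc2, a core subunit of both condensins, had 56.2, 48.0, 44.7, 44.6 and 38.8 CPM across NL-shGFP, 18.1, 23.1, 38.2, 8.03 and 44.6 across FL-shGFP, and 106, 43.7, 52.8, 69.3 and 22.8 across FL-shAlpl. FL-shGFP replicate 5 lay within the NL-shGFP range, and FL-shAlpl replicate 1 was highest of all. Its difference in FL-shGFP did not pass (-0.81 ± 0.40, adjusted p = 0.109), and it rose in FL-shAlpl against FL-shGFP (1.15 ± 0.41, 0.0375). Smc4, its core partner, fell by a smaller amount (-0.78 ± 0.28, adjusted p = 0.031) and rose in FL-shAlpl (0.75 ± 0.28, 0.0445). Of the condensin I subunits, Ncaph fell and rose (-1.20 ± 0.43, adjusted p = 0.0337, and 1.23 ± 0.43, 0.0382), and Ncapg had -1.10 ± 0.47 and 1.21 ± 0.47 with no call.

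Kinetochore and spindle checkpoint genes gave 5 falls of 10 in FL-shGFP (median -1.10) and 4 rises of 10 in FL-shAlpl against FL-shGFP (median 1.11). Bub1b, which encodes the checkpoint protein BubR1, had 49.5, 47.1, 41.3, 39.9 and 36.1 CPM across NL-shGFP, 11.2, 17.4, 29.5, 4.14 and 33.9 across FL-shGFP, and 73.1, 29.7, 42.4, 76.9 and 17.6 across FL-shAlpl. No FL-shGFP library reached the NL-shGFP range, and FL-shAlpl replicates 2 and 5 were below it too. The difference in FL-shGFP was -1.15 ± 0.46 (adjusted p = 0.054), and Bub1b rose in FL-shAlpl against FL-shGFP (1.31 ± 0.47, 0.0389). Bub1, the checkpoint kinase, had 21.8, 21.5, 19.4, 20.9 and 19.1 CPM across NL-shGFP, 4.76, 5.58, 12.1, 1.76 and 15.3 across FL-shGFP, and 31.8, 13.0, 15.2, 27.2 and 6.36 across FL-shAlpl. NL-shGFP was tight and FL-shGFP lay wholly below it. Bub1 fell in FL-shGFP (-1.37 ± 0.48, adjusted p = 0.0288), and its difference in FL-shAlpl did not pass (1.24 ± 0.48, 0.054).

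Mad2l1, which encodes the Mad2 protein that inhibits the APC/C, had 56.9, 57.6, 49.1, 51.2 and 43.8 CPM across NL-shGFP, 15.9, 22.4, 30.9, 5.15 and 37.4 across FL-shGFP, and 77.9, 38.8, 43.7, 78.3 and 20.7 across FL-shAlpl. The control-vector groups did not overlap, and 2 FL-shAlpl libraries exceeded both. Mad2l1 fell in FL-shGFP (-1.21 ± 0.42, adjusted p = 0.0283) and rose in FL-shAlpl (1.21 ± 0.42, 0.0349). Nuf2, a subunit of the Ndc80 complex that grips microtubules, had 21.2, 19.0, 16.7, 16.3 and 14.5 CPM across NL-shGFP, 5.71, 5.74, 9.31, 1.31 and 11.9 across FL-shGFP, and 30.3, 14.8, 18.3, 29.7 and 6.68 across FL-shAlpl. FL-shGFP lay wholly below NL-shGFP, and FL-shAlpl replicate 5 fell between FL-shGFP replicates. Nuf2 fell in FL-shGFP (-1.36 ± 0.45, adjusted p = 0.0232) and had the largest rise of the 46 in FL-shAlpl (1.55 ± 0.45, 0.0167). With any 1 library left out the adjusted p of that rise stayed between 0.006 and 0.0443.

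Spc25, another Ndc80 complex subunit, fell (-0.82 ± 0.30, adjusted p = 0.0359) and rose (0.82 ± 0.30, 0.043), while Ndc80 itself had -0.91 ± 0.43 and 0.80 ± 0.43 with no call. Cenpa, the histone variant that marks centromeres, fell in FL-shGFP (-1.07 ± 0.41, adjusted p = 0.0446) and had 1.01 ± 0.41 without a call in FL-shAlpl against FL-shGFP. No call was made for the checkpoint kinase gene Ttk, the kinetochore motor gene Cenpe or Cenpf, whose estimates were -1.14 ± 0.51, -1.04 ± 0.43 and -0.89 ± 0.46 in FL-shGFP, against 1.24 ± 0.51, 0.90 ± 0.43 and 1.02 ± 0.46 between FL-shAlpl and FL-shGFP.

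The chromosomal passenger complex, which corrects faulty attachments and then guides cytokinesis, gave 2 falls of 4 (median -1.15) and 1 rise of 4 (median 1.28). That rise is 25% of the role, beside 18.0% of all genes. Aurkb, its kinase, had 31.3, 35.1, 27.3, 31.7 and 21.7 CPM across NL-shGFP, 6.68, 11.3, 20.4, 2.44 and 23.7 across FL-shGFP, and 48.0, 22.5, 24.7, 58.2 and 10.5 across FL-shAlpl. FL-shGFP replicate 5 reached into the NL-shGFP range, and the differences of -1.19 ± 0.51 (adjusted p = 0.067) and 1.34 ± 0.51 (0.051) did not pass. Birc5, which encodes survivin, had 54.0, 54.5, 53.8, 59.98 and 40.9 CPM across NL-shGFP, 14.9, 22.5, 31.2, 3.99 and 40.1 across FL-shGFP, and 89.9, 35.8, 41.5, 85.7 and 16.8 across FL-shAlpl. All FL-shGFP values lay below those of NL-shGFP, replicate 5 by little, and neither difference passed (-1.22 ± 0.49, adjusted p = 0.0528, and 1.26 ± 0.49, 0.0572). Cdca8, which encodes borealin, had 40.1, 43.6, 39.0, 35.4 and 30.8 CPM across NL-shGFP, 12.2, 18.4, 22.9, 4.37 and 28.6 across FL-shGFP, and 65.1, 28.0, 33.6, 70.0 and 16.6 across FL-shAlpl. All FL-shGFP libraries were below all NL-shGFP libraries, and 2 FL-shAlpl libraries were above both. Cdca8 fell (-1.12 ± 0.42, adjusted p = 0.0414) and rose (1.30 ± 0.43, 0.028). Incenp, the scaffold of the complex, fell in FL-shGFP (-0.89 ± 0.35, adjusted p = 0.0476), and its difference in FL-shAlpl was 0.89 ± 0.35 without a call.

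Spindle motors and assembly factors had the lowest share of falls of the 7 roles, 1 of 8 (median -1.02). That is 12.5%, below the 21.6% of all genes. There were 3 rises of 8 in FL-shAlpl against FL-shGFP (median 1.07). Kif11, the kinesin that pushes spindle poles apart, had 75.8, 69.4, 59.2, 56.3 and 51.04 CPM across NL-shGFP, 23.9, 22.3, 46.8, 7.68 and 50.1 across FL-shGFP, and 111, 49.9, 65.6, 94.2 and 24.7 across FL-shAlpl. FL-shGFP replicate 5 came close to the lowest NL-shGFP library without reaching it. The difference in FL-shGFP was -1.05 ± 0.43 (adjusted p = 0.0569), and Kif11 rose in FL-shAlpl (1.19 ± 0.43, 0.0413). Hmmr, a spindle assembly factor, fell and rose (-1.29 ± 0.47, adjusted p = 0.0361, and 1.41 ± 0.47, 0.0305). Tpx2, which activates Aurora A on the spindle, rose in FL-shAlpl against FL-shGFP (1.29 ± 0.47, adjusted p = 0.0424) and had -1.12 ± 0.47 in FL-shGFP. The kinesin genes Kif15, Kif4 and Kif2c and the microtubule-binding Nusap1 and Dlgap5 had no call, with -1.06 ± 0.46, -0.87 ± 0.39, -0.99 ± 0.48, -0.92 ± 0.47 and -0.98 ± 0.47 in FL-shGFP, against 1.03 ± 0.46, 0.88 ± 0.39, 1.08 ± 0.48, 1.06 ± 0.47 and 0.95 ± 0.46 between FL-shAlpl and FL-shGFP.

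Of the 4 genes of anaphase and ubiquitin transfer, 1 fell in FL-shGFP (25%, near the 21.6% of all genes, median -0.98). In FL-shAlpl against FL-shGFP 2 rose (median 1.22). Cdc20, the APC/C activator, had 50.3, 53.1, 44.0, 45.2 and 35.5 CPM across NL-shGFP, 15.4, 26.5, 35.1, 4.08 and 41.0 across FL-shGFP, and 83.5, 37.1, 43.1, 109 and 20.7 across FL-shAlpl. FL-shGFP replicate 5 lay within the NL-shGFP range, and neither difference passed (-0.90 ± 0.49, adjusted p = 0.143, and 1.26 ± 0.49, 0.0577). Ube2c, the ubiquitin-conjugating enzyme of the APC/C, fell (-1.35 ± 0.47, adjusted p = 0.0291) and rose (1.38 ± 0.47, 0.0329). Espl1, the separase that cuts cohesin, rose in FL-shAlpl against FL-shGFP (1.17 ± 0.43, adjusted p = 0.0463) and had -1.06 ± 0.43 in FL-shGFP.

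Pttg1, which encodes securin, the inhibitor of separase, stood apart from the other genes. It had 16.7, 18.3, 20.5, 21.5 and 15.6 CPM across NL-shGFP, 13.9, 14.9, 17.2, 16.1 and 19.4 across FL-shGFP, and 16.8, 20.6, 19.1, 15.8 and 20.4 across FL-shAlpl. The 3 groups overlapped, FL-shGFP replicate 4 was in the middle of its group, and FL-shAlpl replicates 1 and 4 were the lowest of theirs. The differences were -0.18 ± 0.12 (adjusted p = 0.228) and 0.19 ± 0.12 (0.249), with the smallest standard error of the 46. Its coefficient of variation between libraries in the edgeR fit was 15.8%, against a median of 48.0% over the 46 genes and a highest value of 56.0% for Ccnb1.

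**Figure D4:**
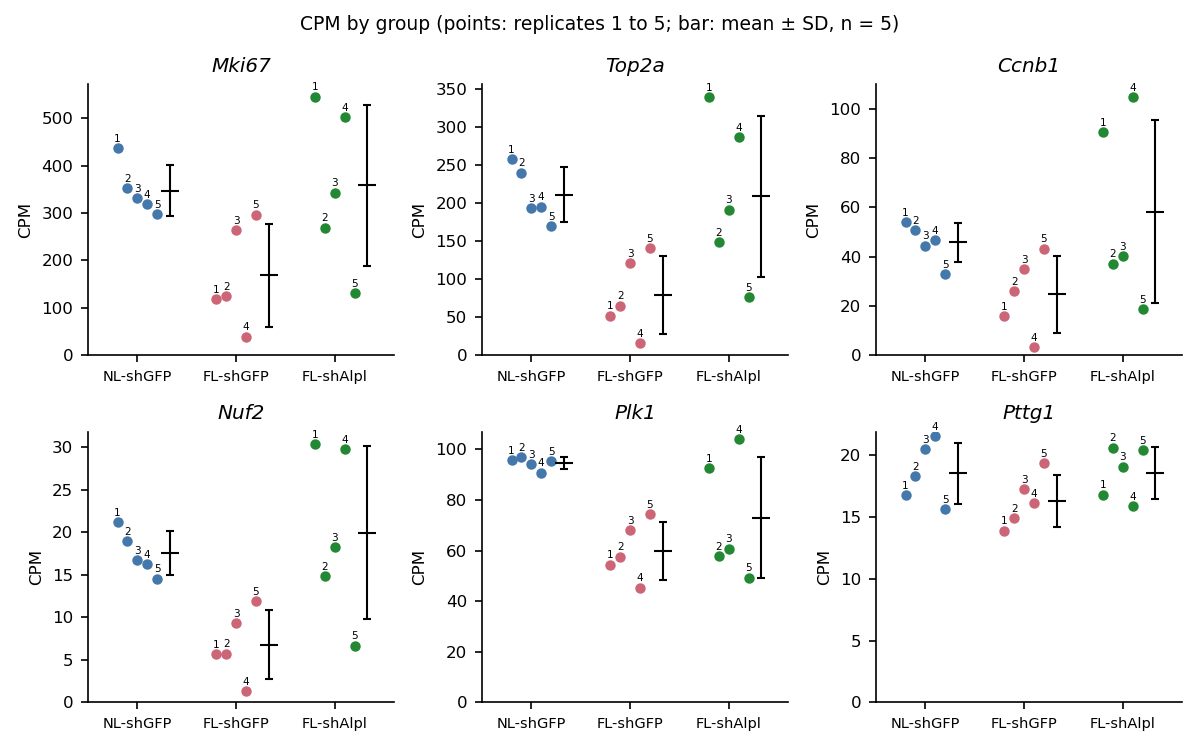
CPM of 6 genes in each library (points, numbered by replicate) with the mean ± SD of each group (n = 5), on axes that start at 0. Mki67, Top2a, Ccnb1 and Nuf2 are lowest in FL-shGFP replicate 4 and highest in FL-shAlpl replicates 1 and 4; Plk1 is tight in NL-shGFP at 90.8 to 96.8 CPM, and Pttg1 overlaps in all 3 groups.

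Genes of the spindle midzone and cytokinesis gave 2 falls of 5 in FL-shGFP (median -0.99) and 4 rises of 5 in FL-shAlpl against FL-shGFP (median 1.25). In none of the 5 did FL-shGFP lie wholly below NL-shGFP. Kif20a, a kinesin that carries the passenger complex to the midzone, had 30.9, 31.0, 21.9, 23.5 and 18.9 CPM across NL-shGFP, 8.58, 12.7, 21.4, 3.72 and 25.4 across FL-shGFP, and 47.8, 21.8, 21.5, 57.1 and 11.4 across FL-shAlpl. FL-shGFP replicates 3 and 5 were within the NL-shGFP range, and no difference passed (-0.81 ± 0.47, adjusted p = 0.163, and 1.15 ± 0.47, 0.0661). Prc1, which bundles midzone microtubules, had 31.2, 29.2, 24.5, 27.5 and 20.3 CPM across NL-shGFP, 8.23, 11.4, 20.7, 3.18 and 21.3 across FL-shGFP, and 47.9, 22.6, 28.1, 53.0 and 13.9 across FL-shAlpl. Again FL-shGFP replicates 3 and 5 reached the normal range. Prc1 had -1.03 ± 0.43 in FL-shGFP (adjusted p = 0.0616) and rose in FL-shAlpl (1.35 ± 0.43, 0.0253).

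Anln, which encodes the contractile ring protein anillin, had 38.2, 35.7, 29.0, 28.2 and 23.2 CPM across NL-shGFP, 10.7, 13.8, 20.9, 5.68 and 24.5 across FL-shGFP, and 56.3, 26.3, 32.0, 52.7 and 12.7 across FL-shAlpl. Only FL-shGFP replicate 5 overlapped NL-shGFP, and FL-shAlpl replicate 5 was below it. Anln fell (-1.02 ± 0.39, adjusted p = 0.0422) and rose (1.25 ± 0.39, 0.0228). Ect2, the exchange factor that activates RhoA at the cleavage site, had 45.9, 46.3, 33.4, 39.4 and 29.5 CPM across NL-shGFP, 13.1, 19.2, 28.9, 6.28 and 30.3 across FL-shGFP, and 80.4, 36.1, 41.1, 64.3 and 19.98 across FL-shAlpl. FL-shGFP replicate 5 was above the lowest NL-shGFP library, and FL-shAlpl replicate 1 was highest of the 15. Ect2 fell (-0.99 ± 0.39, adjusted p = 0.0492) and rose (1.31 ± 0.39, 0.0191). Kif23, a midzone kinesin, had -0.86 ± 0.40 in FL-shGFP and rose in FL-shAlpl against FL-shGFP (1.08 ± 0.40, adjusted p = 0.0467). Of the members given library by library, only Plk1 in FL-shGFP and Nuf2 in FL-shAlpl against FL-shGFP kept their call with each of the 15 libraries left out in turn.

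Between FL-shAlpl and NL-shGFP no mitotic gene was called. By edgeR, 0 of 46 passed in either direction and 0 had an unadjusted p below 0.05, against 17.4% (9.31% higher, 8.12% lower) and 31.8% of all genes. In 0 of 46 did the groups lie apart, against 7.54% of all genes with FL-shAlpl wholly higher and 7.01% wholly lower. DESeq2 also called 0, and voom called 1, lower in FL-shAlpl. The estimates ran from -0.37 to 0.36 with standard errors from 0.12 to 0.52, and adjusted p-values from 0.17 to 0.998. The median was 0.11, against 0.05 over all genes. With errors of this size, moderate differences in either direction were not detectable. The 5 members with the smallest p were Plk1 (-0.37 ± 0.18, adjusted p = 0.17), Smc2 (0.34 ± 0.40, 0.613), Ect2 (0.32 ± 0.39, 0.63), Prc1 (0.32 ± 0.43, 0.661) and Cdc20 (0.36 ± 0.49, 0.662). Signs were mixed, with 37 estimates above 0 and 9 below, and they moved with scaling, to 26 and 20 with upper-quartile factors and 45 and 1 with library totals alone, which shifted the median of all genes to 0.19. With voom and quality weights they were 0 and 46. Without FL-shAlpl replicate 1 they were 13 and 33, and without replicate 4 they were 12 and 34 with 1 gene called lower.

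Other genes of the cell cycle were taken from lists by textbook role and read against all genes, of which 21.6% fell and 25.1% rose in FL-shGFP, and 18.0% rose and 17.9% fell in FL-shAlpl against FL-shGFP. Of 83 other mitosis genes, 35 fell and 2 rose in FL-shGFP (median -0.94), and 39 rose and 1 fell in FL-shAlpl against FL-shGFP (median 1.04). Among them Wee1, the kinase that restrains Cdk1, fell and rose (-1.29 ± 0.24, edgeR adjusted p = 0.000637, and 1.15 ± 0.24, 0.00243). Ube2s, a chain-extending enzyme of the APC/C, did likewise (-0.91 ± 0.20 and 0.87 ± 0.20). Zwint, a kinetochore gene, went the other way in FL-shGFP (0.49 ± 0.11, adjusted p = 0.00201) and was the 1 that fell in FL-shAlpl against FL-shGFP. The summed level of the list was 1638 to 2039.7 CPM across NL-shGFP, 572 to 1643 across FL-shGFP and 1004 to 2894 across FL-shAlpl.

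The 48 S phase genes, which replicate DNA or supply its building blocks, had 37 falls and 0 rises in FL-shGFP (median -1.09) and 44 rises and 0 falls in FL-shAlpl against FL-shGFP (median 1.29). Ung, the uracil DNA glycosylase gene, fell and rose (-1.60 ± 0.30, edgeR adjusted p = 0.000717, and 1.28 ± 0.30, 0.00494), as did the helicase gene Mcm4 (-1.08 ± 0.30, 0.00967, and 1.34 ± 0.31, 0.00454). Rrm2, the ribonucleotide reductase subunit, did not pass in either (-0.86 ± 0.43 and 1.08 ± 0.43). Their summed level was 1272 to 1612 CPM across NL-shGFP, 308 to 1069 across FL-shGFP and 804 to 2343 across FL-shAlpl, with the lowest value in FL-shGFP replicate 4 and the highest in FL-shAlpl replicate 1.

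Lists of machinery that is not restricted to late cell cycle phases had smaller medians. Of 14 APC/C subunit genes, 6 fell and 1 rose in FL-shGFP (median -0.29), and 9 rose and 0 fell in FL-shAlpl against FL-shGFP (median 0.39), with Cdc23 at -0.69 ± 0.16 and 0.63 ± 0.15. Of 11 cohesin genes, 5 fell and 1 rose (median -0.08), then 4 rose and 0 fell (median 0.32), with Pds5b (-1.01 ± 0.16) and Smc1a (-0.58 ± 0.14) among the falls. Of 13 genes of the DREAM and MuvB complexes, their E2F and NF-Y partners included, 4 fell and 1 rose (median -0.31), then 7 rose and 0 fell (median 0.35). Tfdp1, an E2F dimerization partner, fell and rose (-0.72 ± 0.21 and 0.87 ± 0.21), while the pocket protein gene Rbl2 rose in FL-shGFP (0.62 ± 0.10). The 21 G1 cyclins and CDK inhibitors split, with 8 falls and 8 rises (median -0.10) and then 9 rises and 4 falls (median 0.20). Cyclin D1, Ccnd1, fell and rose (-1.27 ± 0.24 and 1.46 ± 0.24), as did Cdk6 (-1.32 ± 0.17 and 1.02 ± 0.17).

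In FL-shAlpl against NL-shGFP, where 9.31% of all genes tested rose and 8.12% fell, there were 1 rise and 0 falls in the 83 other mitosis genes, 0 calls in the S phase and APC/C genes, 1 rise of 11 in cohesin (Stag2, 0.38 ± 0.08), and 2 rises of 13 in DREAM and MuvB (Rbl2, 0.42 ± 0.10, and Tfdp2, 0.33 ± 0.10). G1 cyclins and CDK inhibitors had 2 rises and 1 fall of 21.

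Markers of crypt base stem cells, of surface colonocytes and of T and NK cells also had called differences between the groups. Marker counts, here and in the next paragraph, stand beside 25.1% of all genes that rose and 21.6% that fell in FL-shGFP. In FL-shAlpl against FL-shGFP the shares of all genes were 18.0% and 17.9%. Of 10 crypt base stem cell markers, 9 fell and 0 rose in FL-shGFP (median -2.27), and 8 rose and 0 fell in FL-shAlpl against FL-shGFP (median 1.59). Axin2, a Wnt feedback gene, fell and rose (-4.35 ± 0.44 and 3.78 ± 0.43). Their summed level was 282 to 394 CPM across NL-shGFP, 78.6 to 142 across FL-shGFP and 149 to 308 across FL-shAlpl, and of these genes Lgr5 was at 0 in 1 library and Ascl2 in 2. Of 12 surface colonocyte markers, 10 rose and 0 fell in FL-shGFP (median 2.52), and 9 fell and 0 rose in FL-shAlpl against FL-shGFP (median -1.47). Slc9a3, a sodium-proton exchanger gene, rose and fell (4.05 ± 0.43 and -2.53 ± 0.40). Their sum was 1009 to 2623 CPM across NL-shGFP, 4271 to 11805 across FL-shGFP and 1659.8 to 4297 across FL-shAlpl, with no marker at 0. Within FL-shGFP the colonocyte sum was highest in replicate 4 and lowest in replicate 5, the libraries in which 45 of the 46 mitotic genes were lowest and highest of that group. Within NL-shGFP the order was the other way: the sum was lowest in replicate 5, the library lowest for 42 of the 46 mitotic genes, and highest in replicates 2 and 1, which were highest for 19 and 25 of those genes. Within FL-shAlpl the sum was highest in replicate 2 and lowest in replicate 1, while 45 of the mitotic genes were lowest in replicate 5 (3418 CPM of colonocyte markers).

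Of 14 T and NK cell markers, 13 rose and 0 fell in FL-shGFP (median 2.22), and 14 fell in FL-shAlpl against FL-shGFP (median -3.14). Their sum was 19.8 to 73.4 CPM across NL-shGFP, 101 to 277 across FL-shGFP and 15.7 to 32.9 across FL-shAlpl, and no marker was at 0. Myeloid markers had 7 rises of 10 and then 5 falls of 10, with sums of 177 to 434, 438 to 1170.5 and 157 to 404 CPM in NL-shGFP, FL-shGFP and FL-shAlpl. For B and plasma cells there were 3 rises of 7 and then 1 fall, for fibroblasts 2 of 8 and 1, for endothelium 5 of 6 and 2, and for smooth muscle 4 of 5 and 3. The fibroblast counts, and the falls of B and plasma cell markers, lie near the shares of all genes. The fibroblast sum was highest in FL-shGFP replicate 4 (431 CPM) and FL-shAlpl replicate 5 (353), each lowest of its group for 45 mitotic genes. In NL-shGFP it was highest in replicate 4 (111), while replicate 5, lowest for 42 mitotic genes, had 50.8. Goblet markers had 4 rises and 2 falls of 8 and then 3 falls, enteroendocrine markers 2 rises and 2 falls of 6 and then 0 calls, epithelial markers 5 rises of 7 and then 2 falls, and 3 hepatocyte markers 0 calls in both. The part of these cell types, and of the mitochondrial share of counts, in the differences of the mitotic genes was not tested.

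Beside the same 9.31% and 8.12% of all genes, FL-shAlpl against NL-shGFP had 3 falls and 0 rises of 10 stem cell markers (median -0.77), 3 rises and 1 fall of 12 colonocyte markers (median 0.73) and 1 rise and 4 falls of 14 T and NK cell markers (median -0.88). In the same comparison the mitotic genes had 0 calls of 46.

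**Figure D5:**
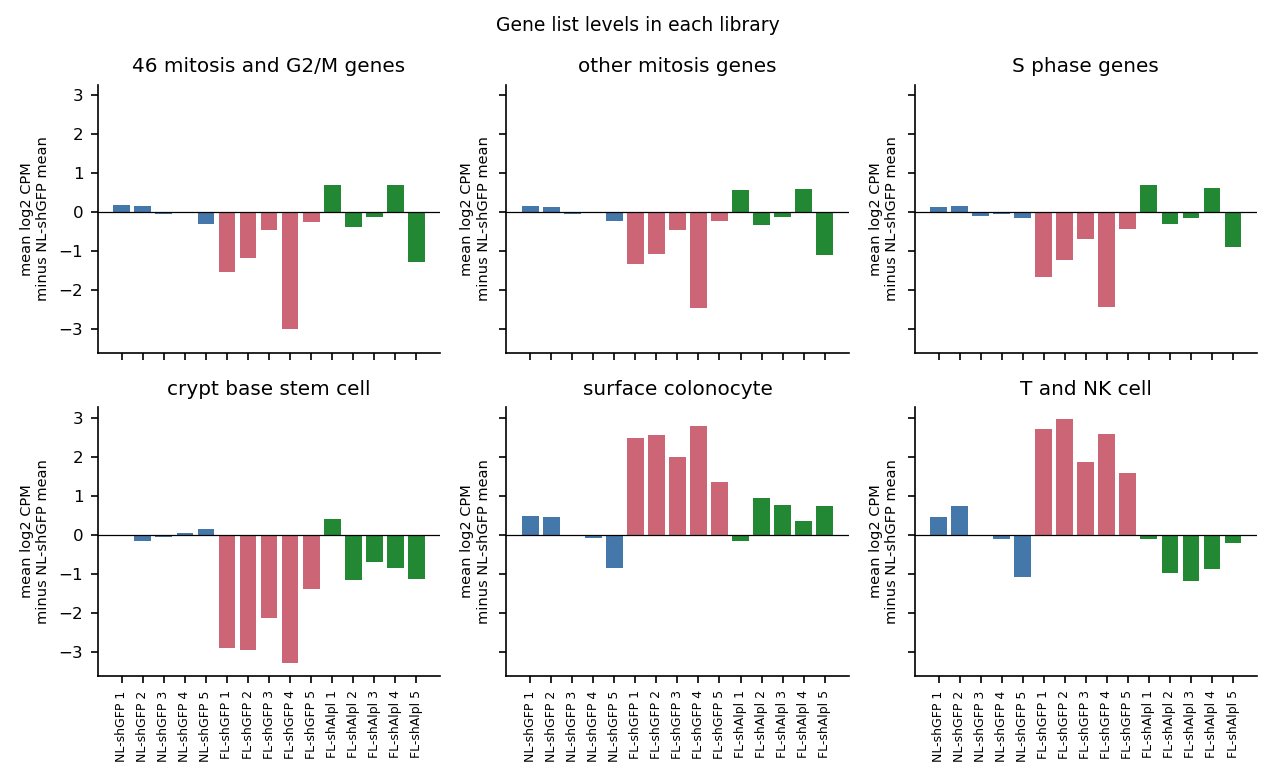
Mean log2 CPM of 6 gene lists in each of the 15 libraries, minus the mean of the 5 NL-shGFP libraries, on 1 shared vertical scale. The mitotic, other mitosis and S phase lists are lowest in FL-shGFP replicate 4 and highest in FL-shAlpl replicates 1 and 4, and the colonocyte and T and NK cell lists are high in all 5 FL-shGFP libraries.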

How the data were processed

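RNA of colonic crypts from WT mice was measured in 15 libraries, 5 for each group, grouped by their labels. Column purification and mRNA enrichment came before library construction, per the labels' protocols. HISAT2 is named, without a version, per the submitters' processing notes. The authors deposited a table of read counts per gene and one of FPKM. How reads were counted, on which build and annotation and with which strand setting is not stated in those sources. Counts from 1 to 12 were even in 72.4% to 77.2% of cases per library, as if each fragment had been counted as 2.

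One edgeR 4.0.16 quasi-likelihood model (R 4.3.3, robust, TMM factors, a mean per group, 12 residual degrees of freedom) was fitted to the 17404 genes that passed filterByExpr, with 15535 genes left out. Tests were two-sided, with Benjamini-Hochberg adjustment over all genes tested, called at 0.05. CPM use the TMM-scaled library sizes, and ± is the SE of a log2 fold change or, beside a level, the SD. That SE was derived from the test, as the size of the log2 fold change over the square root of the quasi-likelihood F statistic. The deposited FPKM values served to compare levels between genes and in alternatives. Log2 CPM for list means used a prior count of 2. DESeq2 1.42.0, limma 3.58.1, Python 3.11.15, pandas 2.3.3 and matplotlib 3.10.9 were also used. The code was tested on simulated data.

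The 46 members, the gene lists and the tests were chosen with earlier results of these data known. Given library by library are 1 or more textbook genes of each role and, for each comparison, the 5 members with the smallest p. From lists, at most 4 called genes (smallest p) and 2 abundant uncalled genes were eligible per comparison, of which the text prints part. Of 14 DREAM and MuvB genes, Lin54 was not matched. Exon overlap was read from a GENCODE annotation of GRCm38, whatever build the authors used. Replicate numbers were not taken to pair libraries (correlations of same-numbered deviations from -0.353 to 0.326). Precision is limited by the spread between libraries rather than by depth.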

Additional observations from a re-analysis of the deposited data

How the results depend on the processing

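All 46 estimates stayed negative in FL-shGFP against NL-shGFP and positive in FL-shAlpl against FL-shGFP under every alternative run, but the number of called genes did not hold. In FL-shGFP it was 16, and became 1 with library totals alone, 1 with no filter on low counts, 1 with close NL-shGFP libraries summed, 27 with DESeq2 and 46 with voom and quality weights. In FL-shAlpl against FL-shGFP it was 21, and became 1 with no filter, 2 with only the 2 groups compared, 7 with close NL-shGFP libraries summed and 32 with DESeq2. In FL-shAlpl against NL-shGFP it was 0, and became 1 with voom, which also put 46 of 46 estimates below 0. The main fit had 9 below 0. Under voom Smc2 stood at -0.0381, Ect2 at -0.0381, Prc1 at -0.0765 and Cdc20 at -0.17. With 1 library left out, the counts ran from 1 to 36, from 1 to 41 and from 0 to 1 in the 3 comparisons. Other alternatives (RLE or upper-quartile factors, 1 CPM in 5 libraries, log2(FPKM + 1) or log2(FPKM + 0.1), mitochondrial genes left out, and, chosen after seeing the data, halved counts) kept each count within 1.5 times. A setting can also change the calls over all genes, which are not given here for the alternatives. The counts therefore cannot be read as changes in the members alone. The causes were not tested.

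A replicate block left 2, 0 and 0 called members in the 3 comparisons, again without the calls over all genes beside them. Not every same-number correlation was over 0.1 in any comparison, so the numbers were not taken to pair the libraries. Over 0.1 were 3 of 5 in FL-shGFP against NL-shGFP (0.129, 0.117 and 0.326) and 0 of 5 in each of the others, and 7, 2 and 4 of 10 libraries correlated best with their own number.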

Other observations

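FL-shAlpl replicates 1 and 4, the libraries with most mitotic RNA, were close in the median of the 46 genes and differed gene by gene. The ratio of replicate 4 to replicate 1 had a median of 1.01, with 27 genes higher in replicate 4 and 19 higher in replicate 1. It was lowest for the condensin core genes Smc4 (0.618) and Smc2 (0.66), and highest for the microtubule depolymerase gene Kif2c (1.44) and for Foxm1 (1.35). These are single libraries, and no test was made. The same pair also differed in other lists. Replicate 4 was higher for 7 of 7 epithelial, 7 of 8 goblet, 7 of 8 fibroblast (median ratio 2.41) and 8 of 12 colonocyte markers. It was higher for 1 of 11 cohesin genes, 1 of 10 crypt base stem cell, 2 of 14 T and NK cell, 2 of 10 myeloid, 0 of 7 B and plasma cell and 0 of 3 hepatocyte markers (median ratio 0.262 for the last).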
